A study of Drosophila melanogaster with 72 samples.

Results

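The comparison described here set the RNA of the monosome fraction against total RNA from the same kind of flies, in young adult females. It rests on 12 of the 72 libraries of the series, 6 from the monosome fraction and 6 from total RNA. These libraries were picked by their labels for fraction, age and genotype. The comparison itself and the gene groups were chosen with earlier results of these data known. The flies were whole Drosophila melanogaster females of 2 to 3 d, and each fraction held 3 libraries of Lsp2[A10] and 3 of Lsp2[B14], alleles of larval serum protein 2. The labels name no control allele and do not say what the alleles change, so genotype was a covariate. Flies were ground in liquid nitrogen, part of the powder gave total RNA, and the remainder was lysed and separated on a sucrose gradient from which monosomes and polysomes were collected. All pools were poly(A)-selected before sequencing, so transcripts without a tail are poorly represented in every group. Polysome libraries of the same flies (n = 6) and monosome and total RNA libraries of the same alleles at 15 d (n = 6 each) were used as further readouts. The labels do not say how many flies made a sample or whether replicates came from separate cultures, so p-values measure the spread between these samples, which may be technical.

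A sucrose gradient sorts mRNA by the number of ribosomes on it. The monosome peak holds mRNAs that carry a single ribosome, and also assembled ribosomes with little or no mRNA. A short reading frame has room for few ribosomes, a strongly initiated long one carries many and sediments with polysomes, and an mRNA that is stored or repressed stays in the lighter fractions, which are not part of this comparison. Total RNA holds all of these. In the ovary, which makes up a large part of a female fly, many maternal mRNAs are stored and translated later in the egg or embryo.

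Monosome libraries held 5.48 to 13.32 M counts and total RNA libraries 15.3 to 39.69 M, so monosome values of weak genes are the less precise. The shallowest library was Lsp2[B14] monosome replicate 2. Markers of sex matched the labels: yolk, chorion and vitelline membrane genes were abundant, while 11 of 12 Y-linked genes had no count in any of the 12 libraries. The summed levels of 14 male germline and 14 accessory gland genes reached no more than 1.38 and 1.53 CPM. Markers of other stages were not absent. In all, 14 early zygotic genes summed to 29.7 to 46.7 CPM in monosomes and 35.7 to 51.1 CPM in total RNA. For 12 larval cuticle genes the sums were 3.49 to 8.12 and 1.55 to 2.46 CPM. Their source was not tested. Levels are given as CPM, the usual count normalised to library size, here after trimmed mean of M-values (TMM) scaling. The batch tag of the labels follows genotype and fraction. Batch therefore cannot be told apart from fraction, or from a difference in the ratio between the alleles. No spike-in is recorded. A level is thus a share of its own library, and a ratio says how strongly an mRNA was represented in the monosome fraction relative to other mRNAs, not how many molecules were there.

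Of 13925 protein-coding genes in the table, 9991 passed the filter on low counts and were tested with edgeR's quasi-likelihood test (Benjamini-Hochberg adjusted p below 0.05). The 2 fractions differed over most of the transcriptome: 4147 genes were higher in monosomes (41.5%) and 4258 were lower (42.6%). At least 2-fold differences were found in 2127 genes that were higher (21.3%) and 2486 that were lower (24.9%). For 3257 genes (32.6%) all 6 monosome libraries lay above all 6 total RNA libraries, and for 3589 (35.9%) all 6 lay below. The counts of single gene groups below are to be read against these shares. With library totals in place of TMM factors the split was 3295 higher and 5042 lower, and the median log2 ratio of all genes moved to −0.298 from −0.014. Log2 ratios below are therefore relative to the typical gene, and a ratio nearer to 0 than that shift has no fixed sign.

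The ratio followed the length of the gene. Genes with fewer than 100 codons had a median log2 ratio of 1.60 (monosome over total RNA), and 272 of 332 were higher in monosomes while 32 were lower. The median was 1.0 for 100 to under 200 codons (863 of 1210 higher, 195 lower) and 0.31 for 200 to under 500 codons (2035 of 3927 higher, 1209 lower). It was −0.40 for 500 to under 1000 codons (840 of 3066 higher, 1674 lower) and −1.16 for 1000 codons or more (132 of 1447 higher, 1146 lower). The same order held in each monosome library set against the mean of the total RNA libraries of its genotype: the median of the shortest bin lay between 1.27 and 2.01 and that of the longest between −1.59 and −0.90. Across genes Spearman's rho between log2 ratio and coding length was −0.51 (9982 genes, and −0.53 to −0.48 in single monosome libraries), a description across genes that are not independent replicates. For transcript length it was −0.57. Polysomes over total RNA followed coding length too (rho −0.39): 248 of 331 genes under 100 codons were higher and 39 lower. The polysome medians from the shortest to the longest class were 1.30, 0.77, 0.16, −0.33 and −0.54.

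**Figure D1:**
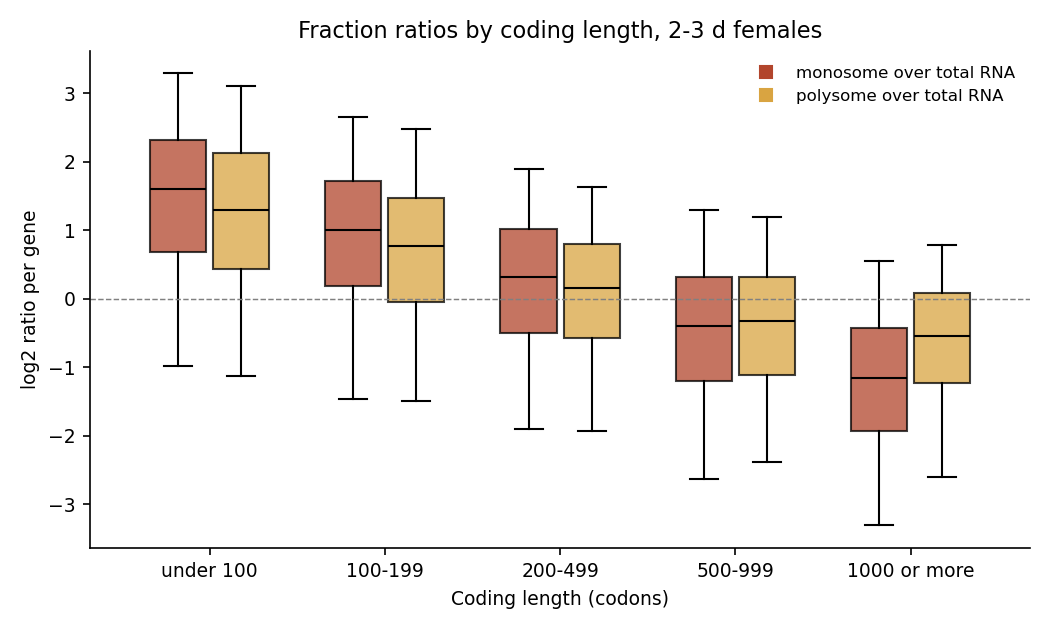
Log2 ratio per gene (vertical axis) by coding length in codons (horizontal axis), for monosome over total RNA (red) and polysome over total RNA (yellow) in 2-3 d females; boxes span the quartiles, lines inside are medians and whiskers reach the 5th and 95th percentiles. Medians run from 1.60 in the shortest bin to −1.16 in the longest for monosomes, and from 1.30 to −0.54 for polysomes.

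Library composition showed the same in sums of counts. Genes under 100 codons took 6.38 to 8.61% of the counts of monosome libraries (median 7.38%) and 2.67 to 3.62% of those of total RNA (median 3.07%). In polysome libraries they took 5.14 to 7.93% (median 6.01%). Genes of 1000 codons or more took 4.99 to 7.42% in monosomes (median 6.14%), 8.11 to 12.2% in polysomes (median 10.2%) and 12.7 to 17.2% in total RNA (median 14.9%). In both bins the monosome and total RNA libraries did not overlap. Polysome libraries lay between the other fractions for the longest genes without touching either.

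**Figure D2:**
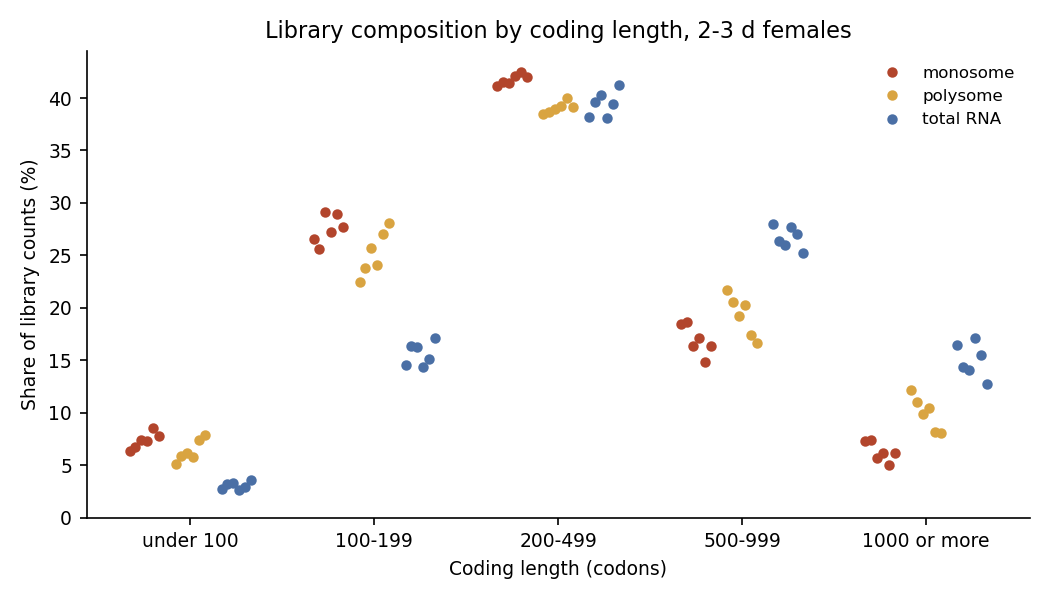
Share of each library's counts (vertical axis, percent) from genes of 5 classes of coding length (horizontal axis, codons); each point is a library of 2-3 d females, 6 per fraction. Monosome libraries exceed total RNA for genes under 200 codons and lie below it for genes of 500 codons or more.

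The length of the untranslated regions gave a gradient as well, which was also present within classes of coding length. Among genes of 200 to under 500 codons the median log2 ratio was 0.92 for annotated 3′ UTRs under 100 nt (965 genes), 0.36 for 100 to under 300 nt (1516 genes), −0.20 for 300 to under 1000 nt (1128 genes) and −0.22 for 1000 nt or more (318 genes). In the same class it was 0.54, 0.30 and −0.06 for 5′ UTRs under 100 nt, of 100 to under 300 nt and of 300 nt or more. For genes of 1000 codons or more the 3′ UTR medians were −0.38, −0.83, −1.38 and −1.31 in the same order. Among these long reading frames, those with annotated 3′ UTRs under 100 nt had the highest median. Over all genes rho was −0.46 for 3′ UTR length and −0.32 for 5′ UTR length. Lengths are those of the annotated transcript with the longest coding sequence, and the isoforms in use in these flies were not measured.

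Gene groups departed from the typical gene in both directions. Apart from larval cuticle proteins (3 of 12 tested, 2.24) and odorant-binding proteins (28 of 51 tested, 1.64), many members of which were below the filter, the highest medians were those of nuclear oxidative phosphorylation genes, vitelline membrane proteins and the Sm and LSm proteins of the spliceosome. The lowest were those of the mitochondrial genome, the piRNA pathway, ion channels and localized maternal mRNAs. Because short genes were generally higher in monosomes, the median of each group is also given after the median of each gene's own coding length class was subtracted (length-adjusted median).

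**Figure D3:**
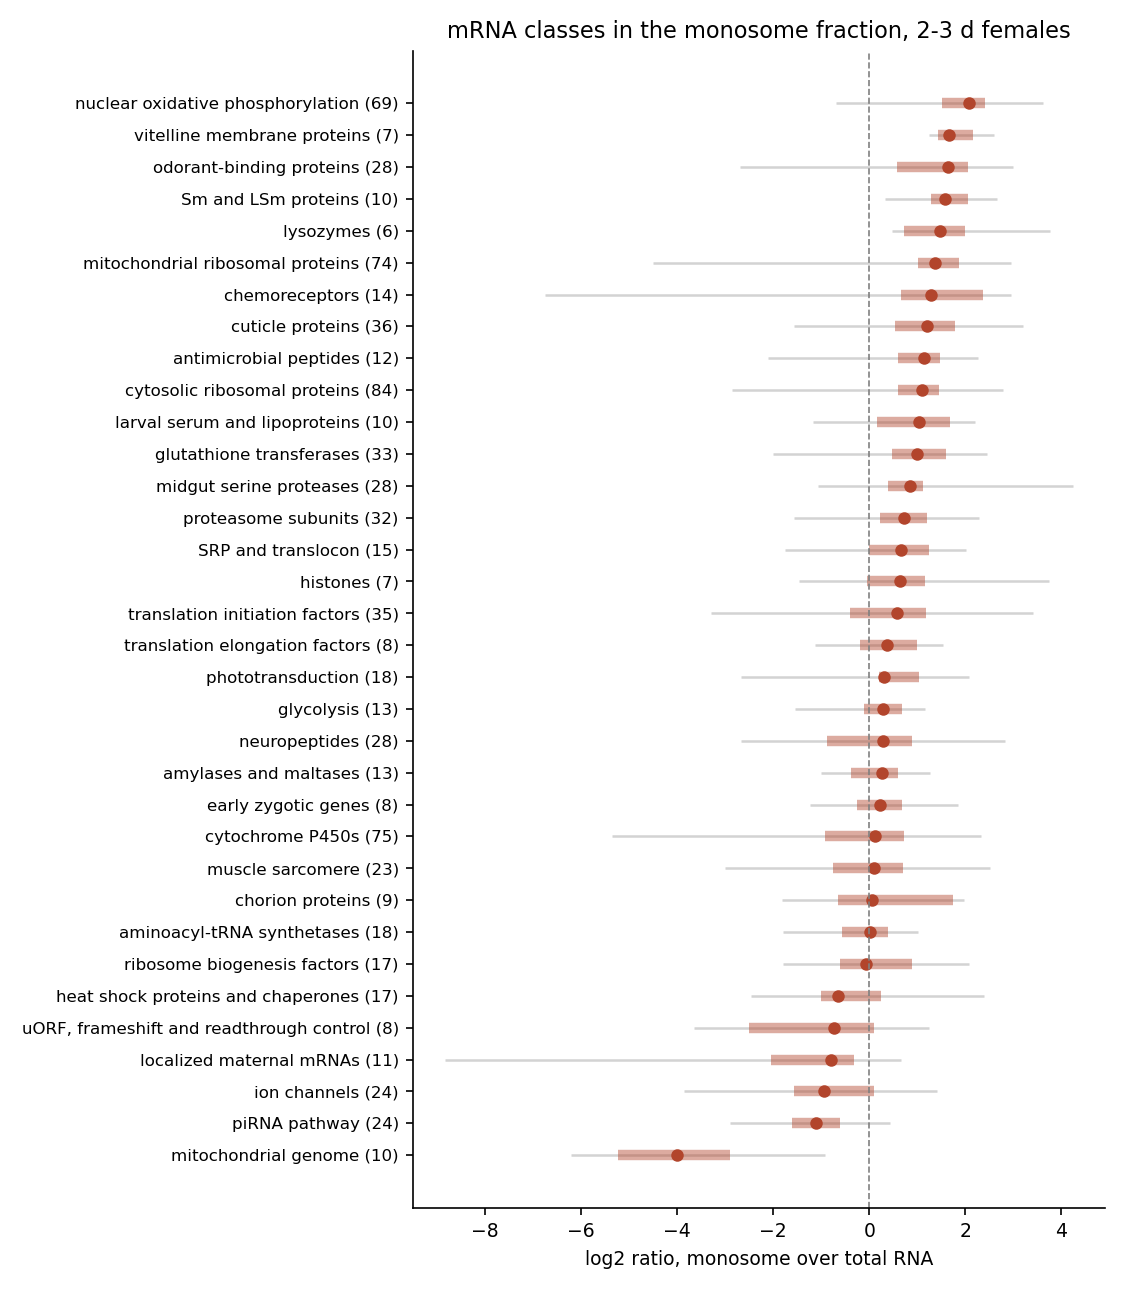
Log2 ratio of monosome over total RNA in 2-3 d females (horizontal axis) for gene groups with at least 6 tested members (number in brackets); dots are medians, thick bars quartiles and thin lines the whole range, and the dashed line is the median of all genes. Nuclear oxidative phosphorylation genes (2.08) and the mitochondrial genome (−4.01) form the ends.

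Cytosolic ribosomal protein mRNAs, which begin with a terminal oligopyrimidine (TOP) tract in animals and whose translation follows mTORC1 activity, were mostly higher in monosomes. Together the 88 genes of the list summed to 227900 to 304700 CPM in monosomes (median 258600) and 104600 to 140200 CPM in total RNA (median 122000). Of the 84 tested, 72 were higher and 5 lower, with a median log2 ratio of 1.10 and a length-adjusted median of 0.30. RpL28 (FBgn0035422, 3L:3220911-3222960, minus strand, BDGP6.54), a protein of the large subunit, stood at 5182 to 8371 CPM in monosomes (median 7273) and 937 to 1115 CPM in total RNA (median 1042). Its log2 ratio of 2.78 ± 0.12 (SE, adjusted p 2.175e-11) was the highest of the group, and the libraries did not overlap. RpL24 followed at 2.30. In the other direction, 2 members were lower by more than 2-fold.

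RpL22, a large subunit protein that also occurs in the nucleus, stood at 25.2 to 121.5 CPM in monosomes (median 46.6) and 366.1 to 419.7 CPM in total RNA (median 387.6), a log2 ratio of −2.85 ± 0.28 (adjusted p 1.11e-07). RpL37A stood at 249.8 to 472.9 CPM in monosomes (median 344.8) and 669.6 to 1086 CPM in total RNA (median 880.2), a log2 ratio of −1.27 (adjusted p 6.335e-07), although its reading frame has only 92 codons. In neither gene did the fractions overlap. RpL22 shares exon sequence with the noncoding gene lncRNA:CR42491 on the same strand, and how reads in such overlaps were assigned is not given in the sources used here. sta, the fly RpSA of the small subunit and one of the 10 genes with most counts, was higher at 1.42 ± 0.10 (adjusted p 1.419e-09).

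Other parts of the translation apparatus were mixed. Initiation factors had 21 higher and 11 lower among 35 tested of 44, with a median of 0.58. eIF5, which activates GTP hydrolysis on the initiator complex, had a log2 ratio of 3.40 at 12.9 to 31.2 CPM in monosomes and 1.32 to 2.25 CPM in total RNA; it shares exon sequence with CG46312 on the same strand. eIF3m, a subunit of the scaffold factor eIF3, had 788.8 to 1343 CPM in monosomes and 212.1 to 237.6 CPM in total RNA, a log2 ratio of 2.30. On the other side, eIF2Bepsilon, the catalytic subunit of the exchange factor that recharges eIF2, stood at 3.72 to 6.06 CPM in monosomes and 48.0 to 52.4 CPM in total RNA. Its log2 ratio was −3.30 (adjusted p 1.134e-12), and eIF2gamma was lower at −1.84.

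Elongation factors differed by member. eEF1alpha1, the main carrier of aminoacyl-tRNA to the ribosome, was lower at 4064 to 9468 CPM in monosomes (median 7839) and 13860 to 15690 CPM in total RNA (median 15180), a log2 ratio of −1.12 ± 0.14 (adjusted p 2.32e-06). Its exchange factor subunit eEF1beta was higher at 1.54 and the paralog eEF1alpha2 at 1.25. The translocase eEF2 did not pass the test (−0.02 ± 0.08, adjusted p 0.8181), at 5894 to 7225 CPM in monosomes and 6320 to 7124 CPM in total RNA. eEF1alpha1 holds most of the group's level in total RNA. The summed level of the 8 genes was lower in monosomes, at 16580 to 22520 CPM against 24500 to 27410 CPM in total RNA, while 5 of them were higher and 2 lower.

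Aminoacyl-tRNA synthetases had 7 higher and 7 lower of 18, and ribosome biogenesis factors 8 and 8 of 17. Their medians were 0.02 and −0.07, each within the shift between scalings. GlnRS was the highest synthetase at 1.01 and GluProRS, a fusion of 2 synthetases with 1714 codons, the lowest at −1.80. Among biogenesis factors Fib, the methyltransferase of box C/D snoRNPs, was higher at 1.71, and Nopp140, a nucleolar chaperone, lower at −1.79.

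Sm and LSm proteins, small subunits of the rings around spliceosomal and decay-related RNAs, were all higher (10 of 10, median 1.58, length-adjusted 0.43). Their summed level was 1430 to 2282 CPM in monosomes (median 1772) and 450.1 to 597.2 CPM in total RNA (median 505). SmE (FBgn0261790, 2L:7884930-7885450, minus strand) stood at 325.8 to 561.2 CPM in monosomes (median 413.1) and 62.0 to 71.1 CPM in total RNA (median 65.6), a log2 ratio of 2.65 ± 0.12 (adjusted p 2.478e-11). The lowest member, LSm3, passed at 0.33 with overlapping fractions, and no longer passed without Lsp2[A10] monosome replicate 3 (0.27) or with library totals (0.04). Signal recognition and translocon genes had 10 higher and 3 lower of 15, from Spase12, a signal peptidase subunit, at 2.02 to Sec61alpha, the pore of the translocon, at −1.76. Proteasome subunits had 24 higher and 5 lower among the 32 tested of 48 listed, with the core particle subunits Prosalpha2 at 2.28 and Prosalpha3 at 2.26, and the regulatory particle subunits Rpn6 at −1.57 and Rpn7 at −1.27.

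Mitochondrial proteins split by the genome that encodes them. Nuclear genes for oxidative phosphorylation, which are translated in the cytosol and imported, had 64 higher and 2 lower among 69 tested of 88, with a median of 2.08 and a length-adjusted median of 1.08. All 88 together summed to 57500 to 89930 CPM in monosomes (median 72420) and 18370 to 25830 CPM in total RNA (median 21870). UQCR-6.4, a small subunit of complex III (FBgn0034245, 2R:17572096-17572784, minus strand, 57 codons), stood at 898.8 to 1831 CPM in monosomes (median 1399) and 85.1 to 149.6 CPM in total RNA (median 108.5), a log2 ratio of 3.62 ± 0.17 (adjusted p 4.844e-11). levy, a subunit of cytochrome c oxidase, was at 3.20. The 2 members that were lower were ATPsynbeta, the catalytic subunit of ATP synthase, at −0.60 and ND-20, a complex I subunit, at −0.69.

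Mitochondrial ribosomal proteins, also made in the cytosol, had 70 higher and 3 lower of 74, with a median of 1.36 and a length-adjusted median of 0.73. mRpL52 was the highest at 2.96, with 116.5 to 229.9 CPM in monosomes and 18.9 to 25.4 CPM in total RNA. mRpS5 stood apart at 1.53 to 4.93 CPM in monosomes (median 3.55) and 61.6 to 91.4 CPM in total RNA (median 81.4), a log2 ratio of −4.50 (adjusted p 6.139e-12).

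Messages of the mitochondrial genome, which are translated inside the organelle on its own ribosomes, were lower without exception among the 10 of 13 genes tested, with a median log2 ratio of −4.01. mt:ND5, a complex I subunit, stood at 1.68 to 2.85 CPM in monosomes (median 2.08) and 82.8 to 204 CPM in total RNA (median 163.2), a log2 ratio of −6.21 ± 0.23 (adjusted p 7.215e-12). mt:CoIII, a subunit of cytochrome c oxidase, had 38.8 to 175.8 CPM in monosomes (median 108.1) and 2909 to 6118 CPM in total RNA (median 4890), a log2 ratio of −5.59. The least reduced were mt:CoI at −0.92 (1595 to 4940 CPM in monosomes and 4118 to 8842 CPM in total RNA, overlapping) and mt:CoII at −0.97. The 3 genes below the filter, mt:ATPase8, mt:ND4L and mt:ND6, were detected in total RNA at no more than 0.669 CPM.

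Germline groups fell on both sides. In whole flies, a tissue with fewer cells and one with less RNA per cell cannot be told apart, but both fractions here came from flies of the same groups. Localized and translationally controlled maternal mRNAs had 1 higher and 8 lower of 11, with a median of −0.80. osk (FBgn0003015, 3R:8935126-8938395, plus strand), whose protein assembles the germ plasm and whose mRNA is silenced until it reaches the posterior pole of the oocyte, had 23 counts in the 6 monosome libraries together and 29440 in the total RNA libraries. Its level was 0.152 to 0.556 CPM in monosomes (median 0.446) and 136.3 to 200.3 CPM in total RNA (median 180.4), which is 453.2-fold lower in monosomes (95% counting interval 302 to 715.1, counting error only). The fitted log2 ratio was −8.84 ± 0.19 (adjusted p 6.583e-14). osk shares exon sequence with the noncoding gene lncRNA:osk.

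The anterior determinant bcd was lower at 1.31 to 7.71 CPM in monosomes (median 5.52) and 32.6 to 50.3 CPM in total RNA (median 39.3), a log2 ratio of −2.86 (adjusted p 2.5e-09). orb, a cytoplasmic polyadenylation factor, was lower at −2.22, and CycB, a mitotic cyclin stored in the egg, at −1.88. cad (−0.16, adjusted p 0.3248) and stau (−0.28, adjusted p 0.05505) did not pass. pgc, which represses transcription in germ cells and has 71 codons, was the member that was higher, at 0.67. For bcd, orb and CycB the monosome and total RNA libraries did not overlap.

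The piRNA pathway, which silences transposons in the germline, had 1 higher and 21 lower among 24 tested of 25, with a median of −1.10 and a length-adjusted median of −0.85. Its summed level was 563.4 to 834.8 CPM in monosomes (median 691.5) and 1410 to 1682 CPM in total RNA (median 1457). nxf2, a nuclear export factor homolog that acts in transcriptional silencing, stood at 1.53 to 6.17 CPM in monosomes (median 4.26) and 19.1 to 40.9 CPM in total RNA (median 29.4), a log2 ratio of −2.91 ± 0.15 (adjusted p 9.857e-11). The RNA helicase gene spn-E was close to it at −2.87. cuff, a subunit of the Rhino complex, was the member that was higher, at 0.43, and was not called with library totals (0.15).

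Eggshell and yolk mRNAs, made by the follicle cells (and for yolk also by the fat body) in the same ovary, did not follow the maternal group. All 7 vitelline membrane genes were higher, with a median of 1.67 and a length-adjusted median of 1.09. Vm26Ab (FBgn0003980, 2L:5957004-5957639, plus strand), a structural protein of the inner eggshell layer, stood at 2010 to 3765 CPM in monosomes (median 2942) and 530.5 to 755.1 CPM in total RNA (median 687.6), a log2 ratio of 2.13 ± 0.14 (adjusted p 1.275e-09). The 9 chorion genes divided by gene: Cp15, Cp16, Cp18 and Cp19 were higher at 1.02, 1.77, 1.75 and 1.97, and Cp36, Cp38 and Cp7Fc were lower at −0.66, −1.40 and −1.82. The higher ones lie on chromosome arm 3L and have 115 to 173 codons, and the lower ones lie on X and have 284 to 321. Cp7Fa (343 codons, log2 ratio 0.05) and Cp7Fb (500 codons, −0.22) also lie on X, are the longest of the group and were not called.

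Yolk protein mRNAs were near the typical gene. Yp1 had 6632 to 8869 CPM in monosomes and 6486 to 9458 CPM in total RNA (log2 −0.05, adjusted p 0.6972), and Yp2 was likewise not called (−0.11, adjusted p 0.3365). Yp3 was lower at −0.72 ± 0.11 (adjusted p 9.865e-06), with 1775 to 2466 CPM in monosomes and 2789 to 3827 CPM in total RNA. The fractions overlapped for Yp1 and Yp2 and not for Yp3.

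Genes known for control by upstream reading frames, frameshifting or readthrough had 2 higher and 5 lower of 8. crc, the fly ATF4, whose reading frame is translated under stress through upstream frames (FBgn0000370, 2L:21310866-21319527, plus strand), stood at 17.3 to 20.6 CPM in monosomes (median 19.2) and 195.4 to 264.7 CPM in total RNA (median 242.2). Its log2 ratio was −3.64 ± 0.08 (adjusted p 6.583e-14); it shares exon sequence with CG46314 on the same strand. SamDC, a polyamine synthesis enzyme whose mRNA carries a regulatory upstream frame in animals, was lower at −3.53, and Oda, the frameshift-controlled antizyme, at −2.15. PPP1R15, the phosphatase subunit that reverses eIF2 phosphorylation, was higher at 1.24 (129.2 to 190.6 CPM in monosomes and 68.3 to 70.8 CPM in total RNA). msl-2, repressed by Sxl in females, did not pass at −0.22 (adjusted p 0.2331).

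Digestive and detoxifying enzymes were compared next. Midgut serine proteases had 21 higher and 1 lower among 28 tested of 31 (median 0.85, length-adjusted 0.53). In 10 of the 28 all monosome libraries lay above all total RNA libraries. The group median ran from 0.30 in Lsp2[A10] monosome replicate 1 to 1.30 in Lsp2[B14] monosome replicate 2, the shallowest library. Jon99Cii, a digestive protease, had 2700 to 12450 CPM in monosomes (median 5986) and 534.3 to 1463 CPM in total RNA (median 926.4), a log2 ratio of 2.74 (adjusted p 4.559e-09), whereas its family member Jon99Fii was lower at −1.06. The Jon and Lys genes have near-identical copies, and how reads shared among copies were counted is not given, so single copies are uncertain. Amylases and maltases had 6 higher and 2 lower of 13 (median 0.27), with medians from −0.23 to 0.89 in single monosome libraries. Glutathione transferases, which conjugate toxins to glutathione, had 25 higher and 5 lower among 33 of 35 (median 0.99), from GstD11 at 2.45 to GstE14 at −2.0.

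Cytochrome P450 genes, the oxidases of detoxification and hormone synthesis, had 31 higher and 25 lower among 75 of 80, with a median of 0.11. Their sum was nevertheless lower in monosomes, at 3132 to 4206 CPM against 7369 to 8996 CPM in total RNA. Much of it was Cyp4g1, the oenocyte enzyme that completes cuticular hydrocarbons, at 1296 to 2599 CPM in monosomes (median 1758) and 5179 to 6956 CPM in total RNA (median 5637), a log2 ratio of −1.71 ± 0.12 (adjusted p 2.23e-09). Heat shock proteins and chaperones had 5 higher and 9 lower among 17 tested of 25. Their median of −0.66 was not stable: it lay between −0.79 and −0.22 when a library was left out (−0.22 without Lsp2[A10] total RNA replicate 1 or Lsp2[B14] total RNA replicate 1) and was −0.13 in Lsp2[A10] alone. Hsc70-3, the chaperone of the endoplasmic reticulum, was lower at −1.85, and Hsc70-1 higher at 2.40. Glycolysis had 7 higher and 3 lower of 13: Pgk was higher at 1.16 and Gapdh1 at 0.85, while Gapdh2 was lower at −1.54.

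Fat body products, immune peptides and muscle gave further contrasts within a group. Among 10 larval serum and lipoprotein genes 7 were higher and 2 lower. The lower 2 were the long lipoproteins apolpp (3351 codons, −1.15) and Apoltp (4333 codons, −1.17), the carriers of lipid in the hemolymph. In 2 of the 10 genes all monosome libraries lay above all total RNA libraries. The group median was 0.42 to 0.65 in single Lsp2[A10] monosome libraries and 1.22 to 1.78 in Lsp2[B14] ones. At 15 d, 1 gene was higher and 3 were lower (median −0.24). Antimicrobial peptides had 7 higher and 1 lower among 12 tested of 14: Mtk, an antifungal peptide, was higher at 2.27, Dro at 2.09 and Drs at 1.11, and AttC was lower at −2.10. In 4 of the 12 all monosome libraries lay above all total RNA libraries. The group median ran from 0.26 in Lsp2[A10] monosome replicate 1 to 2.60 in Lsp2[B14] monosome replicate 2, the shallowest library. Among 23 sarcomere genes 11 were higher and 8 lower. The calcium sensors TpnC25D (2.51) and TpnC47D (2.31) were the highest, flightin (fln), a thick filament protein, was the lowest at −3.01, and sls, the fly titin with 18468 codons, was at −1.93.

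Neural groups also divided. Ion channels, with a median of 725 codons, had 5 higher and 14 lower of 24, a median of −0.95 and a length-adjusted median of 0.03. para, the voltage-gated sodium channel, stood at 1.31 to 2.17 CPM in monosomes (median 1.81) and 19.8 to 38.8 CPM in total RNA (median 27.3), a log2 ratio of −3.86 (adjusted p 9.021e-11). Neuropeptide genes, though short, had 11 higher and 9 lower among 28 of 30 and a length-adjusted median of −0.72. Leucokinin (Lk) was higher at 2.82, and tachykinin (Tk) and allatostatin C (AstC) were lower at −2.68 and −2.04. Phototransduction genes had 11 higher and 3 lower of 18, from the opsin Rh6 at 2.07 to the kinase inaC at −2.67.

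Some groups passed the filter only in part, and a gene can pass it through the fraction where it is high. Their medians and called counts, in text and figures, cover tested members only, so sums over all listed members are added here. Initiation factors summed to 13370 to 15960 CPM in monosomes and 10080 to 10730 CPM in total RNA. Proteasome subunits summed to 6935 to 10840 and 4465 to 5004 CPM, and heat shock proteins and chaperones to 6183 to 8553 and 12020 to 12800 CPM, in the same order. Odorant-binding proteins (28 of 51 tested) summed to 1320 to 2046 CPM in monosomes and 598.4 to 834.8 CPM in total RNA. Cuticle proteins (36 of 95) summed to 1058 to 1826 CPM in monosomes and 750.8 to 1216 CPM in total RNA, and chemoreceptors (14 of 179) to 59.1 to 80.5 CPM in monosomes and 26.8 to 35.9 CPM in total RNA. Histone genes, most of which make mRNAs without a poly(A) tail, had 7 of 117 members tested, and 106 had no count in any of the 12 libraries. The sums of odorant-binding proteins and of chemoreceptors did not overlap between fractions, and those of cuticle proteins did.

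Largest rises and falls were ranked among called genes with a mean of at least 50 counts and no overlap between fractions. Within this set the largest single increases were mostly in small and little-studied genes. Outside it the log2 ratio reached 4.55, in a gene of 500 to under 1000 codons. Among the 10 genes with the largest rise, 5 had fewer than 100 codons and 7 fewer than 200. CG43965 (FBgn0264696, 3L:8725520-8725774, minus strand, 38 codons) stood at 96.6 to 399.4 CPM in monosomes (median 194.2) and 4.15 to 8.46 CPM in total RNA (median 7.42), a log2 ratio of 4.79 ± 0.23 (adjusted p 4.403e-11). It was followed by CG14742 at 4.31, the midgut protease deltaTry at 4.25, CG33946 at 4.05, CG43114 at 3.91, CG14795 at 3.78, CG12158 at 3.73, slmo at 3.72, CG6191 at 3.69 and Listericin, an antibacterial peptide, at 3.64. slmo and CG6191 share exons with CG34179 and CG45088 on the same strand. CG6191, with 746 codons, was the longest of the 10.

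Among the 10 genes of the same set with the largest fall, 7 share exon sequence with another annotated gene on the same strand. That is a property of 5.46% of tested genes (546, median log2 ratio −0.30). Irk1, an inward rectifier potassium channel, and CG7369 had no count in any monosome library. Irk1 had 6.79 to 9.43 CPM in total RNA, which is at least 170.6-fold lower in monosomes, and CG7369 had 4.18 to 7.83 CPM, at least 109.9-fold lower (against a floor of 3 counts over the 6 monosome libraries). Irk1 shares exons with CG46310, and no such overlap is annotated for CG7369.

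PRL-1, a phosphatase, had 4 counts in all monosome libraries and 2858 in total RNA, a ratio of 253 (95% counting interval 98.7 to 929.2). The others were osk and mt:ND5, described above, Sf3b3, a core subunit of the splicing factor SF3b, at −6.77, t, the histamine-recycling tan hydrolase, at −6.67, and raptor, the scaffold subunit of mTORC1, at −6.35, and 2 genes with few monosome counts. inaF-D had 2 counts in all monosome libraries and 627 in total RNA, a ratio of 111 (interval 30.6 to 918.7). Kr-h1, a target of juvenile hormone, had 8 and 1383 counts, a ratio of 61.2 (interval 31 to 142.1). raptor stood at 0.091 to 1.59 CPM in monosomes (median 0.616) and 61.3 to 89.3 CPM in total RNA (median 74.1). It shares exons with Mipp2, Sf3b3 with lncRNA:CR45184, PRL-1 with CG46309, Kr-h1 with CG45075 and inaF-D with other inaF genes.

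**Figure D4:**
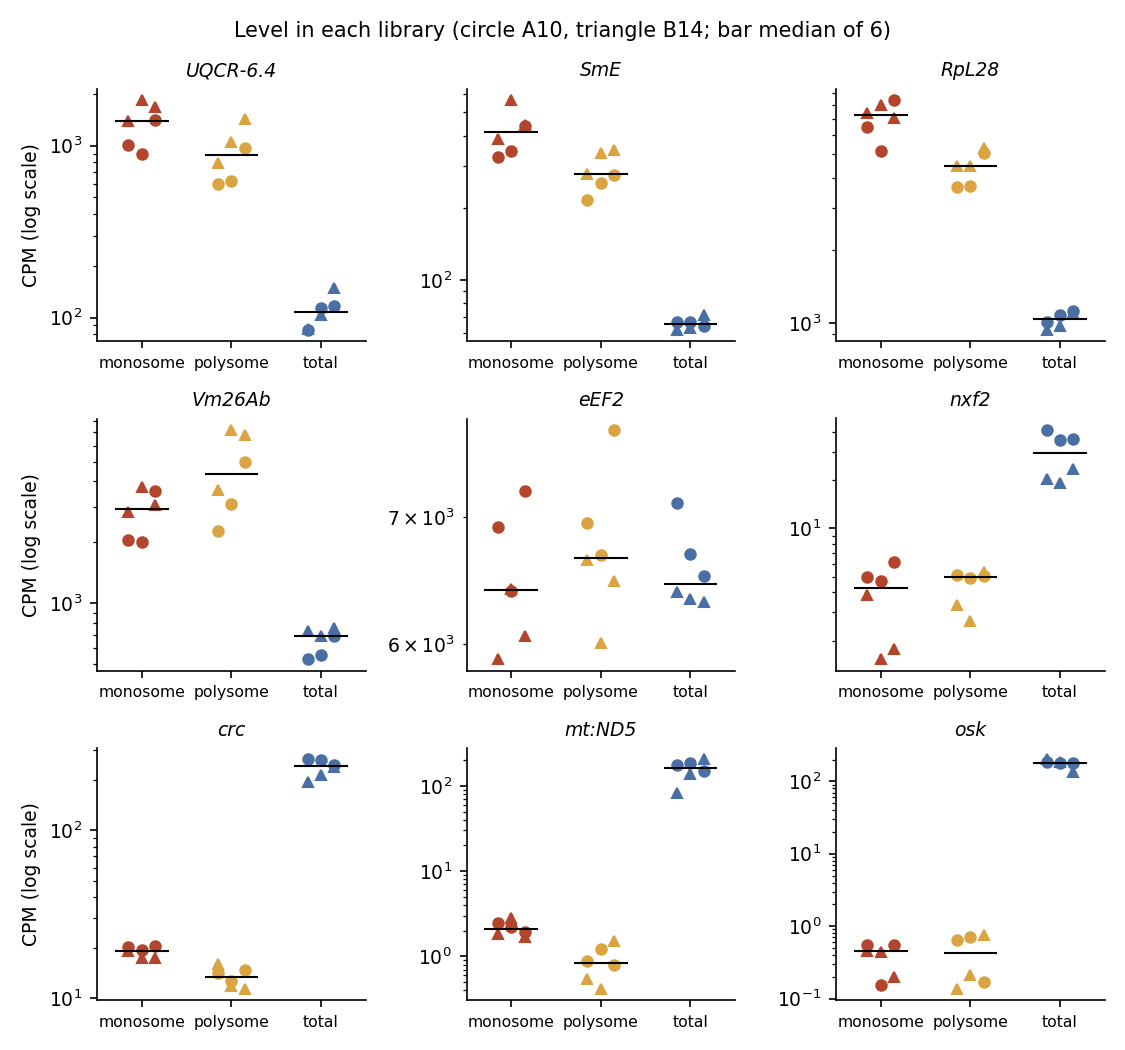
Level in each library of 2-3 d females (vertical axes, TMM-scaled CPM, log scale, a separate scale per gene) in monosomes, polysomes and total RNA for 9 genes; circles are Lsp2[A10], triangles Lsp2[B14] and bars the median of 6. UQCR-6.4, SmE, RpL28 and Vm26Ab lie higher in monosomes than in total RNA in every library, nxf2, crc, mt:ND5 and osk lower, and eEF2 overlaps.

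Thor, Rheb and Lsp2, named in genotypes of the series, were also measured. Thor, the fly 4E-BP that represses cap-dependent initiation, stood at 1000 to 1491 CPM in monosomes (median 1160) and 462.8 to 669.4 CPM in total RNA (median 569.5), a log2 ratio of 1.05 ± 0.09 (adjusted p 1.144e-08). Rheb, the GTPase that activates mTORC1, was lower at 34.2 to 57.3 CPM in monosomes (median 37.1) and 108.5 to 124.9 CPM in total RNA (median 118), a log2 ratio of −1.49 ± 0.11 (adjusted p 4.06e-09). Lsp2 itself, a storage protein of the larval fat body, had 2.46 to 25 CPM in monosomes and 1.44 to 10.2 CPM in total RNA, which overlap (log2 1.10 ± 0.26, adjusted p 0.001001). Within Lsp2[A10] it had 2.46, 3.72 and 3.25 CPM in monosomes and 1.44, 2.85 and 2.46 CPM in total RNA, and within Lsp2[B14] 14.4, 25 and 21.8 CPM in monosomes and 4.58, 5.91 and 10.2 CPM in total RNA. In Lsp2[A10] alone the ratio was not called (0.44). The difference in its ratio between the alleles was not called (−1.07 ± 0.46, adjusted p 0.1779).

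Polysomes differed from total RNA in 8199 of 10185 genes, 4050 higher (39.8%) and 4149 lower (40.7%). This comparison shares its total RNA libraries with the monosome one, so the 2 are given side by side. Of 9806 genes in both and in the comparison of the fractions, 3490 were higher in monosomes and in polysomes, 3516 were lower in both, 59 were higher in monosomes and lower in polysomes, and 81 the reverse. In polysomes over total RNA, none of 10 mitochondrial genome messages was higher and 10 were lower, and 2 of 24 piRNA pathway genes were higher and 21 lower. Among 11 localized maternal mRNAs 3 were higher and 6 lower (median −0.41), and among 8 genes controlled by upstream frames, frameshifting or readthrough 2 were higher and 5 lower. Of the genes described above, the polysome log2 ratio was −8.69 for osk, −7.48 for mt:ND5, −4.23 for crc and −2.76 for nxf2.

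Monosomes were also set directly against polysomes, which uses no total RNA library. In this test 2174 of 9906 genes were higher in monosomes (21.9%) and 2191 were lower (22.1%), with 119 (1.2%) and 389 (3.93%) past 2-fold. With library totals the split was 1203 higher and 3128 lower, and the median of all genes moved to −0.152. Coding length ordered this ratio too: of 1426 genes with 1000 codons or more 25 were higher and 993 lower (median −0.55), and of 326 genes under 100 codons 129 were higher and 45 lower (median 0.27). Among the 4 lowest genes were kis, a chromatin remodeler with 5517 codons, at −2.90 and HERC2, a giant ubiquitin ligase with 4912 codons, at −2.59. kis stood at 32.4 to 56.1 CPM in monosomes, and its polysome level relative to total RNA was −0.50. CG33946 (40 codons, 2.14) and CG43630 (48 codons, 2.08) were among the highest.

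Gene groups took different sides in this direct comparison. Cytosolic ribosomal proteins leaned to monosomes (72 higher and 1 lower, median 0.49), as did nuclear oxidative phosphorylation genes (52 higher and none lower of 69, median 0.53) and cytochrome P450s (40 higher and 3 lower, median 0.42). Mitochondrial ribosomal proteins, with a median of 193 codons beside 155 for the cytosolic ones, did not (6 higher and 11 lower, median 0.02). Mitochondrial genome messages leaned to monosomes (7 higher and none lower of 8, median 0.87). Their medians over total RNA were −4.01 in monosomes and −4.77 in polysomes, so this lean lay between 2 low levels. Vitelline membrane genes leaned to polysomes (none higher and 4 lower, median −0.58), and so did antimicrobial peptides (none higher and 6 lower, median −0.73), ion channels (2 higher and 17 lower, median −1.14) and larval serum and lipoprotein genes (1 higher and 7 lower, median −1.28). Localized maternal mRNAs leaned to polysomes as well (none higher and 8 lower of 10, median −0.49). Ion channels thus had a polysome median of 0.02 over total RNA beside their monosome median of −0.95. Muscle genes leaned to monosomes (13 higher and 3 lower, median 0.25), with sls among the lower ones at −1.54.

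**Figure D5:**
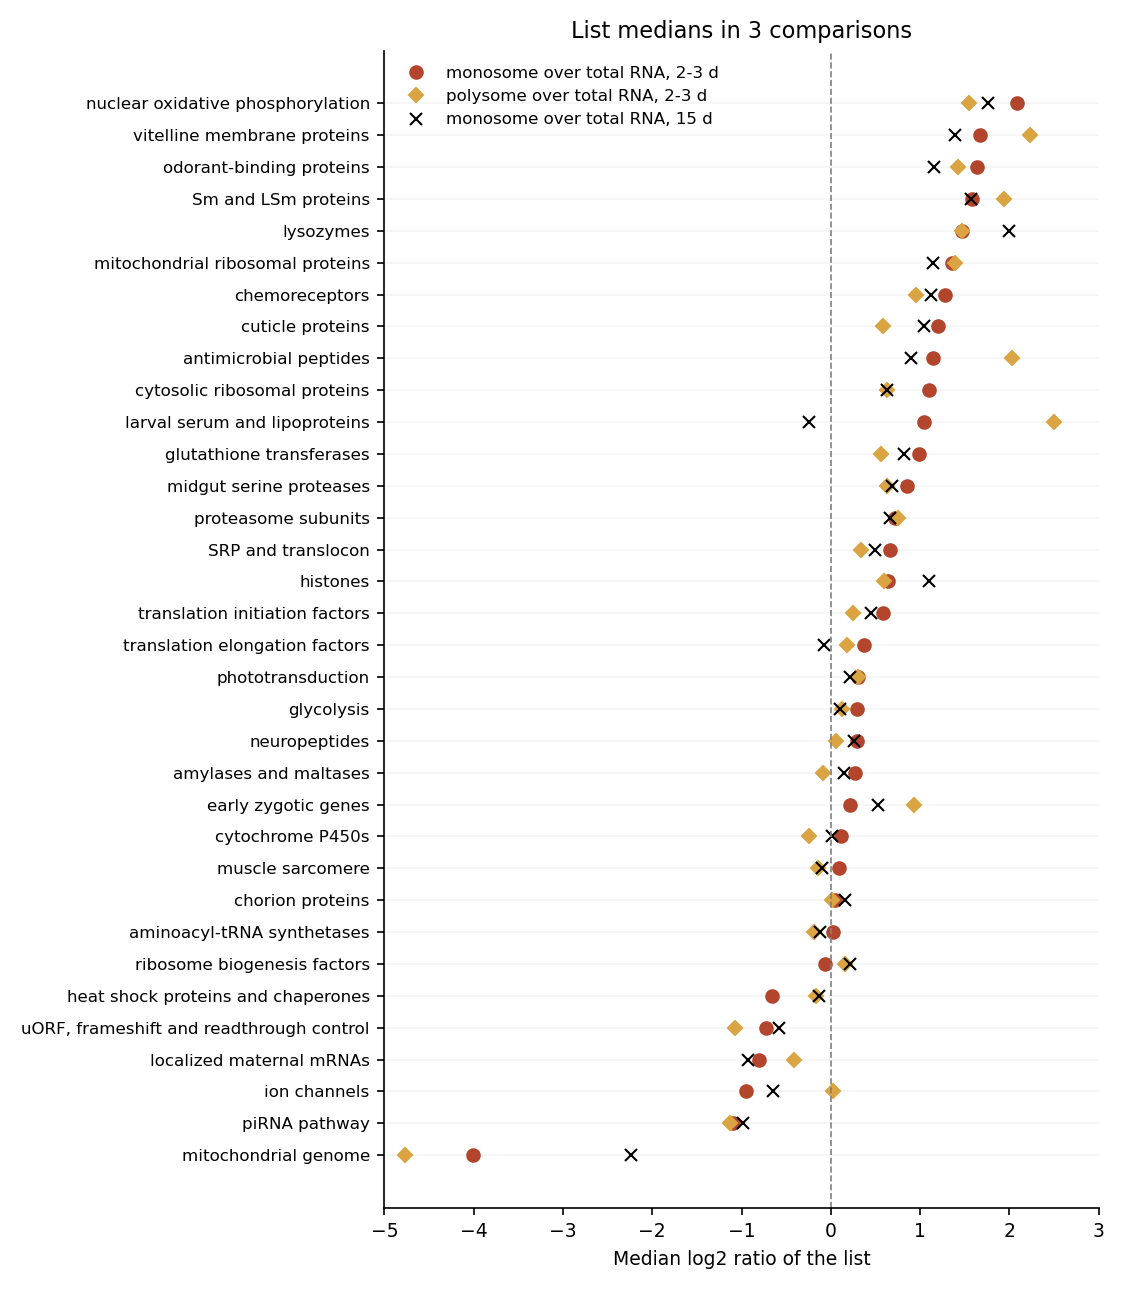
Median log2 ratio of each gene group (horizontal axis) for monosome over total RNA at 2-3 d (circles), polysome over total RNA at 2-3 d (diamonds) and monosome over total RNA at 15 d (crosses). Ion channels and larval serum and lipoprotein genes have polysome medians (0.02 and 2.50) above their monosome medians (−0.95 and 1.04), and the mitochondrial genome is less reduced at 15 d (−2.24) than at 2-3 d (−4.01).

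The test for a difference between the alleles made few calls. Because the batch tag follows genotype and fraction, allele and batch cannot be told apart in it. The monosome ratio differed between Lsp2[A10] and Lsp2[B14] in 19 of 9991 genes (0.19%), 17 higher and 2 lower in Lsp2[A10], and 2336 had an unadjusted p below 0.05. nmdyn-D6, a nucleoside diphosphate kinase family gene, had 1.35, 1.44 and 1.30 CPM in Lsp2[A10] monosomes and 0.182, 0.438 and 0 CPM in Lsp2[B14] monosomes, at 4.63 to 5.38 CPM in all total RNA libraries. The difference in log2 ratio was 3.12 ± 0.57 (adjusted p 0.0453). RpL22 had 121.5, 109.3 and 56.2 CPM in Lsp2[A10] monosomes and 25.7, 25.2 and 37 CPM in Lsp2[B14] monosomes (difference 1.66 ± 0.31, adjusted p 0.0453). The count rests on single libraries. It was 0 without Lsp2[A10] total RNA replicate 2 or 3, Lsp2[A10] monosome replicate 1, Lsp2[B14] total RNA replicate 2 or Lsp2[B14] monosome replicate 3, each left out in turn, 887 without Lsp2[A10] monosome replicate 3 and 948 without Lsp2[B14] monosome replicate 1. It was 9 with a replicate block and 605 with DESeq2. The call of RpL22 was lost in 10 of 12 such omissions and that of nmdyn-D6 in 9 of 12, while the differences stayed between 1.46 and 1.93 for RpL22 and between 2.42 and 3.82 for nmdyn-D6.

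At 15 d the same comparison called 79.6% of 10383 genes, 4069 higher (39.2%) and 4201 lower (40.5%). Of 9932 genes tested at both ages and for the difference, 3456 were higher in monosomes at both, 3696 were lower at both and 115 changed direction. Medians by coding length at 15 d were 1.58, 0.92, 0.25, −0.38 and −0.86 in the 5 classes from shortest to longest. The 15 d libraries form a separate table, so age and table cannot be told apart.

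The difference between the ages itself was called in 3622 of 10467 genes (34.6%), 1859 with a higher ratio in young flies (17.8%) and 1763 with a lower one (16.8%). Past 2-fold there were 140 (1.34%) and 350 (3.34%). That split depends on scaling: with library totals it was 556 and 3674, with the median of all genes at −0.265, and in 19 of the 24 cases where a library was left out it was between 972 and 1273 higher and between 2104 and 2449 lower. Cytosolic ribosomal proteins were higher in monosomes by a median of 1.10 in young flies and 0.63 at 15 d, and 55 of 84 had a higher ratio in young flies while 5 had a lower one (median difference 0.54). Of the 10 mitochondrial genome messages, 5 had a lower ratio in young flies and none a higher one. mt:ND5 stood at 1.68 to 2.85 CPM in young monosomes and 31.4 to 148.9 CPM in 15 d monosomes, beside 82.8 to 204 CPM in young total RNA and 125.4 to 836.5 CPM in 15 d total RNA (difference −3.54 ± 0.62, adjusted p 0.0003063).

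Initiation factor eIF4B, which assists the helicase eIF4A, was higher in monosomes of young flies (106.5 to 183.7 CPM in monosomes and 29.7 to 40.5 CPM in total RNA) and not called at 15 d (137.2 to 176.6 CPM in 15 d monosomes and 150.2 to 178.2 CPM in 15 d total RNA). The difference was 2.11 ± 0.14 (adjusted p 2.874e-10), and the monosome ranges of the ages overlap while those of total RNA do not. Cyp4g1 was reduced in monosomes more in young flies (−1.71) than at 15 d (−0.54), a difference of −1.13 ± 0.16 (adjusted p 1.58e-05).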

How the data were processed

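Raw counts per gene were used as deposited, with a separate column for every library. The authors made the counts, per the submitters' processing notes, with tools that include fastp 0.23.2, Bowtie2 2.3.4.1, STAR 2.2.1, featureCounts 1.6.0 and R 4.2.0 on build BDGP6. Per the labels' protocols, poly(A) RNA was fragmented and sequenced as 150 bp paired ends. The strand setting, the annotation release and the treatment of reads in overlapping or near-identical genes are not given in the sources used here. Symbols, positions and lengths come from the Ensembl annotation BDGP6.54, which held 13915 of the 13925 identifiers.

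Counts were tested with edgeR 4.0.16 (R 4.3.3): default expression filter (3934 genes removed), TMM factors, robust quasi-likelihood fit with a term for genotype and one for fraction, and Benjamini-Hochberg adjustment over all genes tested. The standard error of a log2 ratio was taken as its size divided by the square root of the quasi-likelihood F statistic, since edgeR reports none. Only the 12 libraries of a comparison entered its fit (24 for age). The steps were tested on simulated data in which few genes changed, equally up and down. That test does not show how TMM scaling behaves when most genes differ, as here. In all 12 replicate pairs the spread exceeded sampling noise (chi-square over its degrees of freedom 9.78 to 74.1), so none was counted as a copy of another. Counts carry no molecular identifiers, so counting intervals and floors (3 counts) cover counting error only.

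The gene groups (39 lists, by symbol) and the comparison were chosen with earlier results of these data known. The chorion list was corrected after values had been seen, because its first pattern found only the Cp7F genes. Named genes are the 10 largest rises and falls among called genes with a mean of at least 50 counts and no overlap between fractions, up to 2 called members at either end of a list, all members of short lists, the 10 genes with most counts, up to 4 genes at either end of the other comparisons, and Lsp2, Thor and Rheb. Alternatives covered scaling, filtering, DESeq2 1.42.0, a replicate block and leaving out each library. GC content, upstream start codons and sequences were not analysed here.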

Additional observations from a re-analysis of the deposited data

Results flagged for a closer look

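Allele and batch cannot be told apart in the test of the interaction. The monosome to total RNA ratio differed between the alleles in 19 genes by this test. Beside nmdyn-D6 (3.12) and RpL22 (1.66), the named ones were Mis12, a kinetochore subunit (1.83), CG15047 (1.62), Csas, a sialic acid synthesis enzyme (−1.41), and CG15083 (−1.19), each as the log2 ratio of Lsp2[A10] minus that of Lsp2[B14]. Mis12 had 5.17, 5.85 and 6.82 CPM in Lsp2[A10] monosomes and 2.64, 2.19 and 1.68 CPM in Lsp2[B14] monosomes. Csas had 11.5, 11.3 and 14.5 CPM in Lsp2[A10] monosomes and 20.6, 30.9 and 21.8 CPM in Lsp2[B14] monosomes. Leaving out 1 of the 12 libraries at a time ended the call of Mis12 in 7 cases, CG15047 in 8, Csas in 9 and CG15083 in 6. The differences themselves stayed between 1.63 and 2.06 for Mis12, 1.52 and 1.71 for CG15047, −1.62 and −1.23 for Csas, and −1.38 and −1.16 for CG15083.

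The ratio differed between the ages in 3622 genes by the same kind of test. As the log2 ratio of young flies minus that at 15 d, it was higher for pre-lola-G (4.17), Lsp1alpha (2.35), eIF4B (2.11) and Apl (1.99), and lower for CG7369 (−5.90), Irk1 (−5.55), mt:ND5 (−3.54) and mt:ND4 (−3.43). CG7369 and Irk1 had no count in young monosomes, so the size of their difference depends on the prior count and is no bound. pre-lola-G, which shares exons with lola, had 21.5 to 33.5 CPM in young monosomes and 5.14 to 8.46 CPM in young total RNA, beside 0 to 0.625 CPM in 15 d monosomes and 0.541 to 1.16 CPM in 15 d total RNA. Its difference lay between 3.70 and 5.23 when a library was left out. Apl had 19.7 to 65.3 CPM in young monosomes and 7.01 to 8.53 CPM in 15 d monosomes, beside 7.52 to 10.1 CPM in young total RNA and 5.91 to 8.05 CPM in 15 d total RNA.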

How the results depend on the processing

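The monosome to total RNA comparison called between 5722 genes (tested against a 1.5-fold change) and 8823 genes (no filter on low counts) over 22 alternatives, with 8405 as reported, and between 8270 and 8439 when any library was left out. Library totals lowered the median of all genes to −0.298, and some group medians moved further under other settings. The genotype difference was the least stable count: 19 as reported, 9 with a replicate block, 6 with relative log expression factors, 4 with library totals, 605 with DESeq2, and 0 to 948 when any library was left out. The polysome, direct, 15 d and age comparisons kept their counts within 1.5 times of the reported ones. Same-numbered monosome and total RNA libraries correlated in their deviations from the group means at 0.242, −0.074 and 0.265 in Lsp2[A10] and at 0.235, −0.071 and −0.129 in Lsp2[B14], and the labels do not say that the number marks a shared powder. With a replicate block the main count was 8276. Only genes near 0 changed sign: Yp1 lay between −0.12 and 0.04 and eEF2 between −0.05 and 0.02 when a library was left out, Yp1 was 0.01 and eEF2 0.04 with a mean count of at least 50, in Lsp2[A10] alone eEF2 was 0.02, cad 0.23 and msl-2 0.01, and sesB was −0.15 with library totals and 0.14 as reported. Depth limits weak monosome genes most, since 1 count in the shallowest library stands for more CPM than elsewhere.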
